A study of Homo sapiens with 8 samples.

Results

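The 10 genes followed here act at successive steps of macroautophagy and were read in IMR32 cells exposed to CR31B. They were taken by symbol (SQSTM1, NBR1, MAP1LC3B, GABARAPL1, ULK1, WIPI1, ATG5, ATG12, BECN1 and TFEB), and each symbol matched 1 of the 58787 Ensembl identifiers of the count table, so 10 of 10 were found. Of these, 9 had enough counts to be tested and GABARAPL1 did not.

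IMR32 is an established human neuroblastoma line with amplified MYCN, labelled wild type. After 48 h of adherence the cells received CR31B, a rocaglate that blocks the RNA helicase eIF4A, at its IC50 (no concentration is given in the labels), or 0.1% DMSO as vehicle, and polyadenylated RNA was taken at 6 h. Each group had 4 libraries, described as biological replicates and numbered 1 to 4 in both groups. Replicate 1 of each group was sequenced paired-end and replicates 2 to 4 single-end.

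Macroautophagy encloses cytoplasm in a double membrane and delivers it to the lysosome. The ULK1 kinase starts the process, a lipid kinase complex built around BECN1 makes the phosphoinositide PI3P, and WIPI proteins bind that lipid. An ATG12-ATG5 conjugate then attaches proteins of the ATG8 family (the LC3 and GABARAP proteins) to the growing membrane, where receptors such as SQSTM1 (also called p62) and NBR1 tie cargo to them and are themselves degraded. TFEB is a transcription factor that switches on autophagy and lysosomal genes through the CLEAR motif, an extended E-box.

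The stretches just before the annotated starts of TFEB and WIPI1 are shown because TFEB was the member with the largest rise and WIPI1 is a known target of TFEB. Both come from the RefSeq promoter table (GRCh38.p14) and are read 5′ to 3′ on the gene's strand, which is minus for both. They start 100 bases before the RefSeq start and run to that start for TFEB or to the first annotated exon base for WIPI1, and hold 100 and 83 bases. The TFEB stretch is at chr6:41735609-41735708 and precedes 1 of the 3 TFEB starts of the table. It lies inside the annotated span of TFEB, 41683978 to 41736259, and not upstream of it. The WIPI1 stretch is at chr17:68457514-68457596. None of the motifs searched was found in the TFEB and WIPI1 stretches, so they hold no capitals. The MAP1LC3B line shows the 1 match found in the members, in capitals, with 10 bases on each side.
TFEB: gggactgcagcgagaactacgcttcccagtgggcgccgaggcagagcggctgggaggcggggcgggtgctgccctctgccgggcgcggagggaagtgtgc
WIPI1: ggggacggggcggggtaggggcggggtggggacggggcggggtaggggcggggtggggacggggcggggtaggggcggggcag
MAP1LC3B: gcgagtcaccTGACCAGGCtgcgggctga

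The search covered the 250 bases before each start, on both strands, in 16 windows of the 10 genes. The E-box CACGTG was in 0 of the 16 windows and in 6.34% of all 35116 windows of the table, and the CLEAR motif, searched as the E-box with GT before it and AC after it, in 0 and 0.308%. The C/EBP-ATF response element TGATGNAAN, bound by ATF4, was in 0 of the 16 and in 3.13% of all windows. The antioxidant response element TGACNNNGC, bound by NRF2 (the product of NFE2L2), was in 1 window, that of MAP1LC3B, against 10.9% of all windows. That match, on the plus strand, begins 46 bases before the RefSeq start on chromosome 16 and lies wholly in annotated exon bases. Its window, 87392086 to 87392335, is inside the annotated span of the gene, 87383995 to 87404779, and not upstream of it. The E-box and CLEAR searches overlap, and the windows of 1 gene can overlap too. These are matches of letters, and no binding was measured here.

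The libraries held 43687828 to 64715535 counts. All 7 neuroblast markers read (PHOX2A, HAND2, GATA3, ISL1, TH, DBH, CHGA) were above 1 CPM in each library, where CPM is the count scaled to library size with TMM factors. Their summed level was 2974 to 3254 CPM with CR31B and 2144 to 2209 CPM with DMSO in replicates 2 to 4, and 2133 and 3075 CPM in the replicate 1 libraries labelled CR31B and DMSO. The 7 did not move as one. In replicates 2 to 4 the means with CR31B and DMSO were 1328 and 678 CPM for HAND2, 886 and 259 CPM for GATA3 and 88.1 and 71.8 CPM for ISL1. They were 408 and 512 CPM for PHOX2A, 137 and 271 CPM for DBH, 291 and 379 CPM for CHGA and 2.28 and 2.30 CPM for TH. Of 10 markers of other cell types 8 were under 1 CPM in each library, with CD68 and GFAP at 0, and COL1A1 and PDGFRB made up most of the sum, which was 35.6 to 49.0 CPM with CR31B and 36.4 to 42.0 CPM with DMSO in replicates 2 to 4. The part of these markers in the results was not tested.

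The pair numbered 1 ran against the other 3 pairs. In the 6 libraries of replicates 2 to 4, 41.3% of 16696 tested genes passed the threshold of 0.05 (quasi-likelihood test of edgeR, p adjusted by Benjamini-Hochberg). Of 6882 called genes that were also tested with all 8 libraries, 98.9% had the opposite sign in pair 1. With all 8 libraries as labelled, 0% of 16518 genes passed. No label was changed. Each gene below is given first for replicates 2 to 4, with pair 1 apart, and directions follow the labels of replicates 2 to 4.

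In replicates 2 to 4, 6 of the 9 tested members passed, against 41.3% of all tested genes. TFEB and ATG5 rose (2 of 9, against 23.8% of all tested genes called higher), and SQSTM1, WIPI1, MAP1LC3B and ATG12 fell (4 of 9, against 17.6% called lower). NBR1, ULK1 and BECN1 did not pass. The median log2 fold change of the 9 was -0.10, and that of all tested genes -0.0070. The CR31B and DMSO libraries of replicates 2 to 4 did not overlap for these 6 members, as for 52.1% of all tested genes (27.7% with CR31B higher and 24.4% with CR31B lower). SQSTM1 and TFEB were the 2 of 9 called with a change of at least 2-fold, against 2.68% of all tested genes. With replicate number as a block the same 6 of 9 passed, against 51.1% of all tested genes. The share over all genes also depends on the count filter. Among genes with at least 1 CPM in at least 3 libraries, 6974 of 13236 were called, 3557 higher and 3417 lower. The same 6 of 9 members passed there.

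**Figure D1:**
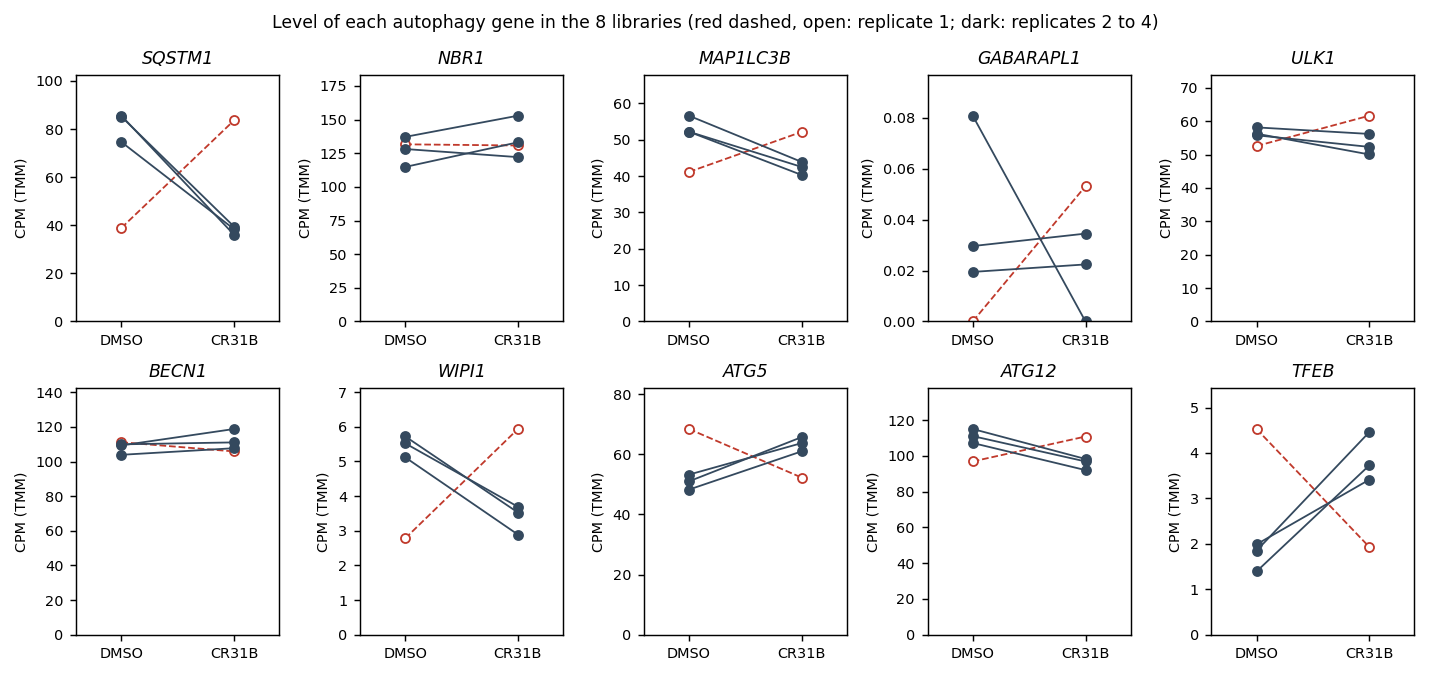
Level in CPM (vertical axis, from 0, a separate scale for each gene) in DMSO and CR31B libraries, with a line joining each numbered pair; dark points are replicates 2 to 4 and open red points replicate 1. SQSTM1 lies at 74.6 to 85.5 CPM with DMSO and 36.0 to 39.4 CPM with CR31B in replicates 2 to 4, and its replicate 1 line crosses in the other direction; GABARAPL1 stays under 0.1 CPM.

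Of the cargo receptors, SQSTM1 links ubiquitinated proteins to ATG8 proteins and also binds KEAP1, the adaptor that holds NRF2 in check. SQSTM1 (ENSG00000161011, chromosome 5, 179806398 to 179838078, plus strand) was at 38.4, 36.0 and 39.4 CPM in CR31B replicates 2, 3 and 4 and at 74.6, 85.5 and 85.2 CPM in the DMSO libraries of the same numbers. The 3 CR31B libraries were all lower than the 3 DMSO libraries. SQSTM1 fell by 53.6%, or -1.11 ± 0.067 (SE) on the log2 scale (edgeR adjusted p 1.64e-06), and was lower in 3 of 3 pairs. Of the 16696 tested genes 85, or 0.509%, had a fold change as low or lower. In pair 1 the level was 83.6 CPM under the label CR31B and 38.9 CPM under the label DMSO, so the level labelled CR31B lay within the range of the other DMSO libraries.

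NBR1 (ENSG00000188554, chromosome 17, 43170481 to 43211689, plus strand) is a receptor of similar domain plan that acts with SQSTM1 and in the turnover of peroxisomes. It was at 122, 153 and 133 CPM in CR31B replicates 2 to 4 and at 128, 137 and 115 CPM in the DMSO libraries. The groups overlapped, and pair 2 differed in sign from pairs 3 and 4. The fitted log2 difference of NBR1 was 0.10 ± 0.087 (SE), with a 95% interval from -0.089 to 0.297 (edgeR adjusted p 0.371). In pair 1 both libraries were near 131 CPM (130.8 labelled CR31B, 131.6 labelled DMSO). The 2 receptors thus had different results in the same fit, but the difference between them was not tested.

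MAP1LC3B encodes LC3B, the ATG8 protein most often used to count autophagosomes. MAP1LC3B (ENSG00000140941, chromosome 16, 87383995 to 87404779, plus strand) was at 43.9, 40.3 and 42.5 CPM in CR31B replicates 2 to 4 and at 56.6, 52.2 and 52.2 CPM with DMSO. All CR31B libraries were lower than all DMSO libraries of these replicates. MAP1LC3B fell by 21.3% (-0.34 ± 0.058 SE on the log2 scale, edgeR adjusted p 0.000925), in 3 of 3 pairs. Pair 1 had 52.2 CPM in the library labelled CR31B and 41.2 CPM in the one labelled DMSO. Only 4.18% of the 75-base windows of its transcripts also occur in its close copy MAP1LC3B2, which had 2 to 11 counts.

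GABARAPL1 (ENSG00000139112, chromosome 12, 10212458 to 10223130, plus strand), a GABARAP-type ATG8 protein, was nearly without counts. It had 3, 0, 2 and 1 counts in CR31B replicates 1 to 4 and 0, 5, 2 and 1 in DMSO replicates 1 to 4. A count of 0 allows a level of up to 0.057 CPM in CR31B replicate 2 and 0.072 CPM in DMSO replicate 1, counting error only. No difference was detectable at this depth, and no fold is given. In GENCODE 29 no other gene shares its exons on the same strand, and 3.69% of its 75-base windows occur in the antisense gene AC115676.1, which had 0 counts. The table also holds 272 identifiers that are not in that release, so an overlap with one of them was not tested.

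ULK1 encodes the kinase at the head of the pathway. ULK1 (ENSG00000177169, chromosome 12, 131894651 to 131923167, plus strand) was at 56.2, 50.03 and 52.3 CPM in CR31B replicates 2 to 4 and at 58.1, 56.3 and 55.8 CPM with DMSO. The groups came close and overlapped at 1 library, CR31B replicate 2. The fitted log2 difference of ULK1 was -0.10 ± 0.057 (SE; edgeR adjusted p 0.182). ULK1 passed with upper quartile scaling (-0.20, edgeR adjusted p 0.0124), with total count scaling (-0.18, edgeR adjusted p 0.0204) and with GC and length offsets plus the replicate block (-0.14, edgeR adjusted p 0.0206). In pair 1 it was at 61.6 CPM in the library labelled CR31B and 52.6 CPM in that labelled DMSO.

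BECN1 encodes Beclin 1, the scaffold of the PI3P-making complex and a partner of BCL2. BECN1 (ENSG00000126581, chromosome 17, 42810134 to 42833350, minus strand) was not called in any fit run on replicates 2 to 4. It was at 111.1, 118.8 and 107.7 CPM in CR31B replicates 2 to 4 and at 109.9, 109.3 and 103.9 CPM with DMSO, and at 105.8 and 111.2 CPM in the replicate 1 libraries labelled CR31B and DMSO. The groups overlapped, and the fitted log2 difference was 0.065 ± 0.053 (SE), with a 95% interval from -0.054 to 0.183 (edgeR adjusted p 0.365).

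WIPI1 encodes a PI3P-binding propeller protein of early autophagic membranes. WIPI1 (ENSG00000070540, chromosome 17, 68420948 to 68457513, minus strand) was at 3.53, 3.69 and 2.89 CPM in CR31B replicates 2 to 4, from 129 to 214 counts a library, and at 5.72, 5.52 and 5.12 CPM with DMSO. The 3 CR31B values were all lower. WIPI1 fell by 38.0%, or -0.69 ± 0.12 (SE) on the log2 scale (edgeR adjusted p 0.00127), in 3 of 3 pairs. In pair 1 the level was 5.94 CPM under the label CR31B, the highest of the 8, and 2.78 CPM under the label DMSO, the lowest.

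ATG5 and ATG12 encode the partners of 1 conjugate and went in opposite directions. ATG5 (ENSG00000057663, chromosome 6, 106045423 to 106325791, minus strand) was at 63.7, 61.0 and 65.7 CPM in CR31B replicates 2 to 4 and at 53.2, 48.3 and 51.0 CPM with DMSO. It rose 1.25-fold (0.32 ± 0.056 SE on the log2 scale, edgeR adjusted p 0.00116), in 3 of 3 pairs and without overlap. In pair 1 it was at 52.3 CPM in the library labelled CR31B and 68.4 CPM in that labelled DMSO.

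ATG12 (ENSG00000145782, chromosome 5, 115828200 to 115841858, minus strand), the ubiquitin-like partner, was at 98.2, 92.0 and 96.8 CPM in CR31B replicates 2 to 4 and at 115.0, 107.2 and 111.0 CPM with DMSO. Again no library of one group reached the other. ATG12 fell by 13.7% (-0.21 ± 0.051 SE on the log2 scale, edgeR adjusted p 0.0068), in 3 of 3 pairs. With GC and length offsets its value was -0.35, over 1.5 times as large, and the call held. In pair 1 the libraries labelled CR31B and DMSO had 110.8 and 96.8 CPM.

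TFEB (ENSG00000112561, chromosome 6, 41683978 to 41736259, minus strand) was, with WIPI1, one of the low-level members that could be tested. It was at 3.41, 3.73 and 4.46 CPM in CR31B replicates 2 to 4 (179, 216 and 199 counts) and at 1.99, 1.39 and 1.85 CPM in the DMSO libraries (123, 94 and 95 counts). The lowest CR31B library of these replicates was higher than each of the DMSO libraries. TFEB rose 2.22-fold, or 1.15 ± 0.17 (SE) on the log2 scale (edgeR adjusted p 0.000369), in 3 of 3 pairs. A fold change as high or higher was found for 211 genes, or 1.26% of those tested. In pair 1 it had 1.93 CPM in the library labelled CR31B and 4.53 CPM in the library labelled DMSO.

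**Figure D2:**
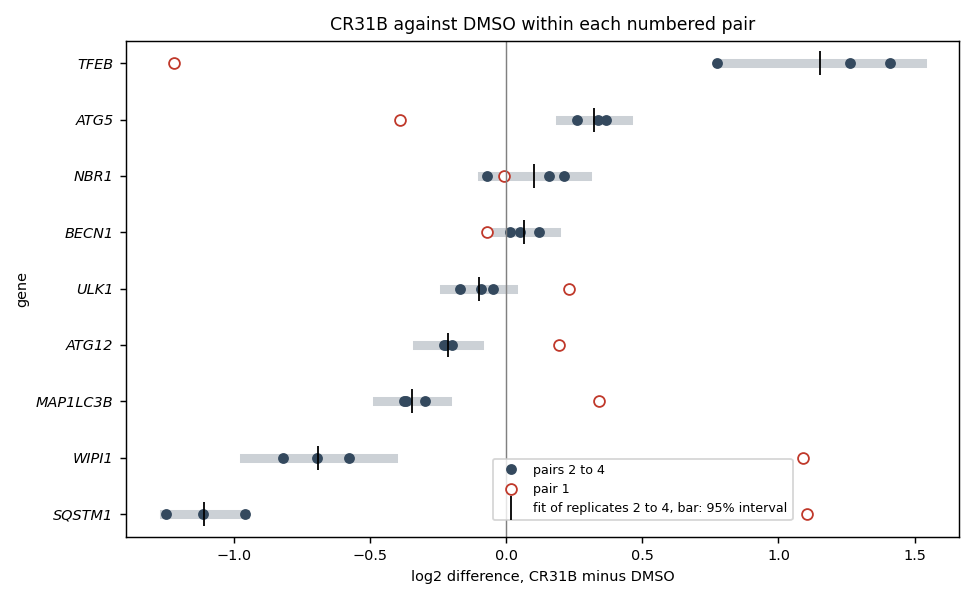
Log2 difference of CR31B minus DMSO (horizontal axis) within each numbered pair for the 9 tested members (rows); filled points are pairs 2 to 4, open red points pair 1, and the tick with its pale bar the fitted value for replicates 2 to 4 with its 95% interval. Pairs 2 to 4 lie on one side of 0 for TFEB, ATG5, ATG12, MAP1LC3B, WIPI1 and SQSTM1, and pair 1 lies on the other side for these 6.

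Pair 1 was set against pairs 2 to 4 gene by gene. In pair 1 all 6 called members had the opposite sign, with log2 differences of 1.10 for SQSTM1, 1.09 for WIPI1, 0.34 for MAP1LC3B, 0.19 for ATG12, -0.39 for ATG5 and -1.22 for TFEB. For all 6 of them the level in the library labelled CR31B replicate 1 was nearer the DMSO mean of replicates 2 to 4. The level in the library labelled DMSO replicate 1 was nearer the CR31B mean. Both also held for NBR1, ULK1 and BECN1, which were not called, and for GABARAPL1, which was not tested. The share over all genes was not taken. A test of the difference between pair 1 and the other pairs (interaction of treatment with layout, edgeR) passed for 7 of the 9 tested members, against 42.5% of all tested genes. These were the 6 called members and ULK1. The spread in that test comes from replicates 2 to 4, since pair 1 has 1 library a group, and replicate number 1 and paired-end sequencing cannot be told apart.

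With all 8 libraries as labelled, 0 of the 9 tested members passed (edgeR, adjusted p), with 0% of all tested genes called. At an unadjusted p under 0.05 the number was 0 of 9, against 1.24% of all tested genes, and DESeq2 and limma voom also called 0 members. The mean of SQSTM1 was then 49.3 ± 22.9 CPM under the label CR31B and 71.04 ± 22.04 CPM under the label DMSO (SD, n = 4 each), a log2 difference of -0.59 (edgeR adjusted p 0.707). The means of TFEB were 3.38 ± 1.06 and 2.44 ± 1.42 CPM (SD, n = 4 each), a log2 difference of 0.58 (edgeR adjusted p 0.707). In 0 of the 9 did the 4 libraries of one label lie apart from the 4 of the other, against 0.66% of all tested genes. Both differences were within the spread between replicates. With either the library labelled CR31B replicate 1 or the one labelled DMSO replicate 1 left out, 6 members passed. The layout covariate then takes up the paired-end library that is left. Those fits therefore rest on replicates 2 to 4 and add nothing to the fit of these alone.

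Levels of different genes were compared as CPM per kb of merged exon, a length-scaled level. Merged exons take in all annotated transcripts of a gene, with 7654 bases for SQSTM1 and 6414 for BECN1. The order and ranks below rest on these lengths, and other lengths were not tried. In DMSO replicates 2 to 4 BECN1 was highest at 16.8 ± 0.52 and NBR1 next at 15.1 ± 1.34 CPM per kb (SD, n = 3), and these neighbours overlapped. ATG12 followed at 12.5 ± 0.44, then SQSTM1 at 10.7 ± 0.81 and MAP1LC3B at 10.1 ± 0.48 CPM per kb, which overlapped each other. ATG5 was at 8.99 ± 0.44 and ULK1 at 7.46 ± 0.16, then WIPI1 at 1.60 ± 0.090 and TFEB at 0.309 ± 0.055 CPM per kb, none of them overlapping the neighbour in this order. In CR31B replicates 2 to 4 SQSTM1 was at 4.95 ± 0.23 CPM per kb and had rank 7 of the 10 in place of rank 4, and ATG5, at 11.2 ± 0.42, rank 3 in place of rank 6. In those libraries ATG5 and ATG12, the neighbour at rank 4 (10.8 ± 0.37 CPM per kb), overlapped.

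**Figure D3:**
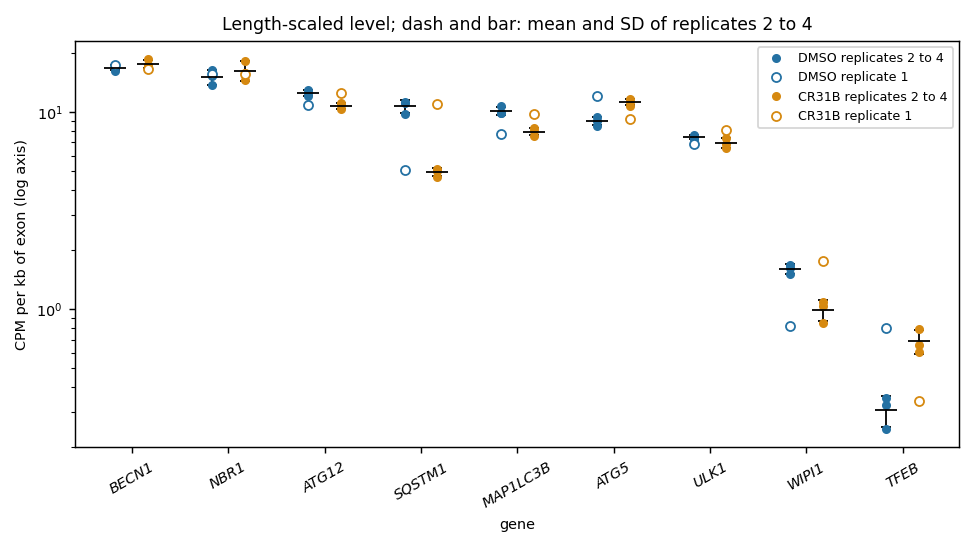
Level in CPM per kb of merged exon (vertical log axis) for the 9 tested members, ordered by their mean in DMSO replicates 2 to 4; filled points are replicates 2 to 4, open points replicate 1, and dashes with bars the mean and SD of replicates 2 to 4 (n = 3). BECN1 and NBR1 lie at the top near 16.8 and 15.1, and WIPI1 and TFEB under the rest at 1.60 and 0.309 in DMSO.

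Several members share exon bases with a gene on the other strand, where reads are separated only if strand was used in counting. The deposited table carries the word reverse in its name, which may refer to reverse-stranded counting, and no other source used here gives the setting. SQSTM1 shares 22% of its exon bases with MGAT4B and MRNIP, WIPI1 28.1% with ARSG and AC007780.1, and BECN1 17.1% with PSME3 and CNTD1. In replicates 2 to 4 MRNIP fell too, from 12.7 CPM with DMSO to 10.4 CPM with CR31B (log2 fold change -0.28, edgeR adjusted p 0.0321). MGAT4B did not pass and was at 50.4 CPM with CR31B, above SQSTM1 there, and at 55.8 CPM with DMSO (-0.15, edgeR adjusted p 0.113). ARSG, at 6.54 CPM with CR31B and 5.12 CPM with DMSO, did not pass (0.35, edgeR adjusted p 0.215). Its mean was above that of WIPI1 with CR31B (3.37 CPM) and below it with DMSO (5.46 CPM). PSME3, at 736 and 558 CPM, was above BECN1 and rose (0.40, edgeR adjusted p 9.74e-05). AP3S1, which shares bases with ATG12, was at 101 and 117 CPM and fell by nearly the same amount as ATG12 (-0.21, edgeR adjusted p 0.0307). FBXO31, which shares bases with MAP1LC3B, was at 8.37 and 10.99 CPM and fell as well (-0.39, edgeR adjusted p 0.0145). The part of these genes in the members' values was not tested. The shares were 8.05% for GABARAPL1, 5.51% for NBR1, 4.25% for ATG12, 2.82% for MAP1LC3B and 0 for ULK1, ATG5 and TFEB.

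The rest of the pathway was read from 10 lists of 104 genes, of which 100 were tested. In replicates 2 to 4, 24 rose and 34 fell, so 58% were called against 41.3% of all tested genes, and 57 of the 58 called genes had the opposite sign in pair 1. The counts of each list below are to be read against 23.8% of all tested genes called higher and 17.6% called lower. These shares depend on the filter. Among genes with at least 1 CPM in at least 3 libraries, 6974 of 13236 were called, 3557 higher and 3417 lower. The lists were not counted under that filter. With all 8 libraries as labelled 0 of the 100 passed (edgeR, adjusted p). The balance of directions depended on scaling. Over all genes 57.5% of calls were higher with TMM, 40% with upper quartile and 43.1% with total count scaling, and the lists gave 19 higher and 46 lower, and 20 higher and 45 lower, under the last 2.

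The lysosomal list held 16 of the 34 genes that fell. Of its 23 lysosomal genes 16 fell, 1 rose and 6 did not pass, so 73.9% were called against 41.3% of all tested genes, with a median log2 fold change of -0.24 beside -0.0070 for all tested genes. With upper quartile scaling 18 fell and 0 rose. That scaling called 4509 of all 16696 tested genes lower and 3010 higher, and their median log2 fold change was -0.10. CTSD, the aspartic protease cathepsin D, was at 15.0 ± 1.41 CPM with CR31B and 25.6 ± 1.70 CPM with DMSO (SD, n = 3), a log2 fold change of -0.77 ± 0.086 (SE). PSAP, the precursor of the saposins that help break down sphingolipids, was at 161 ± 3.95 and 247 ± 4.29 CPM (SD, n = 3), a log2 fold change of -0.62 ± 0.047 (SE). The gene that rose was ATP6V1H, a subunit of the proton pump, with a log2 fold change of 0.22 (not called with upper quartile or total count scaling), and it was named after its value was seen. TFEB, which is known to drive many genes of this list, rose in the same comparison. Only its RNA was measured, and a link with these genes was not tested.

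Members of the initiating complexes were called in both directions. In the ULK1 complex 3 of 4 rose and 1 fell. With GC and length offsets 2 rose, and RB1CC1, named after its value was seen, went from 0.27 to 0.058 (edgeR adjusted p 0.529 with the offsets). ATG101, which steadies ATG13 in the complex, was at a log2 fold change of 0.78 ± 0.078 (SE) and ATG13, the regulatory subunit, at 0.33 ± 0.048. In the class III PI3-kinase complex 3 of 7 rose and 2 fell (71.4% called). PIK3R4, its regulatory subunit, had 0.56 ± 0.052 (SE) and AMBRA1, a BECN1 partner, 0.50 ± 0.050. Among PI3P effectors and membrane suppliers 4 of 10 rose and 1 fell (50% called), and with upper quartile or total count scaling 3 rose and 4 fell. ZFYVE1, a PI3P-binding protein of the omegasome, was at 0.74 ± 0.082 (SE) on the log2 scale, the lipid scramblase ATG9A at 0.38 ± 0.065.

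In the conjugation machinery 2 of 9 rose and 2 fell, and the 44.4% called is near the 41.3% of all tested genes. The ATG8 protease ATG4C was at 0.74 ± 0.057 (SE) on the log2 scale, and ATG16L1, the partner that docks the ATG12-ATG5 conjugate on membranes, -0.46 ± 0.065. Of the 5 other ATG8 genes 3 were tested, and GABARAPL2 was the 1 that fell (-0.27 ± 0.062 SE). MAP1LC3A and GABARAP did not pass, with log2 fold changes of 0.067 and -0.28, and these 2 genes were named after their values were seen. GABARAP was itself at only 0.27 CPM with CR31B and 0.34 CPM with DMSO. Overlap with other genes was not checked for GABARAP, and the cause of its low counts was not tested. Among 17 other receptors 4 rose and 5 fell (52.9% called). The ER-phagy receptor CCPG1 was at 0.62 ± 0.10 (SE) and WDFY3, an adaptor for protein aggregates, at 0.55 ± 0.055, and with GC and length offsets these values were 0.41 and 0.31, both still called.

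**Figure D4:**
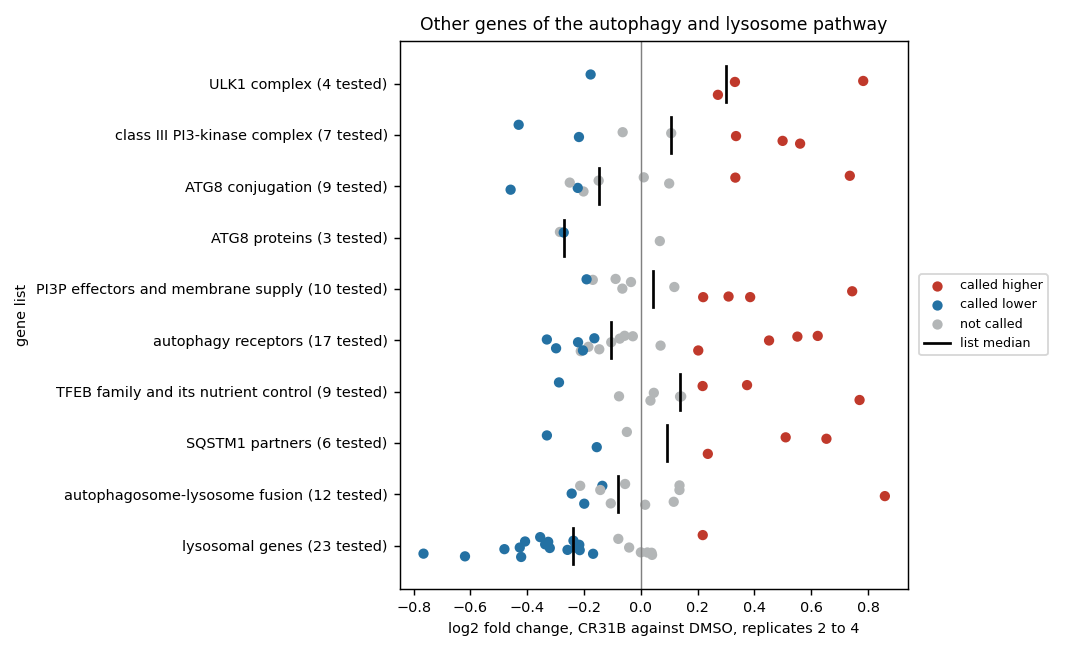
Log2 fold change of CR31B against DMSO in replicates 2 to 4 (horizontal axis) for the 100 tested genes of 10 pathway lists (rows); red points were called higher, blue called lower, grey not called, and the black tick is the list median. The lysosomal row has 16 of 23 points called lower and 1 called higher, while the other rows hold calls on both sides except the ATG8 proteins, with 1 call.

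For the regulators around TFEB, 3 of 9 tested genes rose and 1 fell (2 and 2 with upper quartile or total count scaling, 3 and 2 with GC and length offsets), and the 44.4% called is near the 41.3% of all tested genes. FOXO3, another transcription factor of autophagy genes, was at 0.77 ± 0.11 (SE) on the log2 scale, and FLCN, the folliculin protein that acts on the RagC and RagD GTPases upstream of TFEB, 0.37 ± 0.077. Of 6 SQSTM1 partners 3 rose and 2 fell (83.3% called; 2 and 2 under the same scalings, 2 and 1 with GC and length offsets). NFE2L2, which encodes NRF2, was at 196 ± 17.7 CPM with CR31B and 125 ± 10.5 CPM with DMSO (SD, n = 3; log2 fold change 0.65 ± 0.078 SE), and the kinase PRKCI had 0.51 ± 0.056. In the fusion list 1 of 12 tested genes rose and 3 fell, or 33.3% against 41.3% of all tested genes. With replicate number as a block 3 rose and 5 fell, with 51.1% of all tested genes called. VPS18 and VPS39, subunits of the HOPS tether, had log2 fold changes of 0.86 ± 0.067 and -0.24 ± 0.054 (SE).

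Genes with the pattern most like each member were sought by Pearson correlation of log2 CPM over the 8 libraries, among 10796 genes with a symbol and a mean of at least 5 CPM. For the called members the library labelled DMSO replicate 1 lies with CR31B replicates 2 to 4 and that labelled CR31B replicate 1 with DMSO replicates 2 to 4, so the points fall into 2 sets of 4 and r is a description, with no p. The closest 3 were ZMAT2, VASH1 and RABL3 for SQSTM1 (r from 0.994 to 0.996), PCSK5, PRKCI and PIK3CA for TFEB (0.992 to 0.993), and RPS20, SMS and TTC3 for ATG12 (0.998). For MAP1LC3B they were MTPN, RARS2 and TSKU (0.995 to 0.996), for WIPI1 YPEL3, KIAA1522 and ANAPC5 (0.987 to 0.992), and for ATG5 PPP1R37, DR1 and UVRAG (0.993 to 0.997), UVRAG being a BECN1 partner. NBR1 was closest to NFIX, VSIG10 and TLCD5 (0.966 to 0.987), ULK1 to PDIA3P1, YBX1P10 and ZDHHC18 (0.964 to 0.971), and BECN1 to CCDC121, AKAP6 and SLC24A1 (0.948 to 0.963). GABARAPL1 had too few counts for its closest genes to be read.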

How the data were processed

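Polyadenylated RNA of IMR32 cells was sequenced in 8 libraries, 4 with CR31B and 4 with DMSO. The authors deposited raw counts per Ensembl gene, with no normalisation; the submitters' processing notes name FastQC 0.11.7, STAR 2.7.2b, edgeR 3.36.0, limma 3.50.3 and GRCh38, without roles. The counting tool and the annotation are not given in the sources used here, and of the strand setting only the word reverse in the deposited table's name speaks. The header of CR31B replicate 4 lacks its first letter and was matched without it.

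Counts were tested with edgeR 4.0.16 (R 4.3.3; glmQLFit, glmQLFTest, two-sided) after filterByExpr and TMM, with Benjamini-Hochberg adjustment over all tested genes and a threshold of 0.05. The fits were all 8 libraries with layout as a covariate, replicates 2 to 4 alone, and the interaction of treatment with layout. Pair differences use log2 CPM (prior count 1). GENCODE 29 gave positions and exon lengths for 58515 of 58787 identifiers. The 10 members and all lists were chosen with earlier results of these data known. The genes named are the members, up to 2 called genes of each list with the largest change, and 3 like genes per member. Alternatives were 3 scalings, 2 filters, DESeq2 1.42.0, limma voom 3.58.1, a replicate block, no layout term, GC and length offsets (loess), and leaving out each library. One marker gene of the fixed list is not reported here. The scripts were tested on simulated data.

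Depth was 43687828 to 64715535 counts a library, PCR duplicates included, so precision from depth covers counting error only. No libraries were duplicates (smallest mean chi-square per gene 6.61, where 1 is expected of 2 draws from one library). In replicates 2 to 4 deviations from the group means correlated at 0.21, 0.39 and 0.16 between same-numbered libraries. The numbers were taken to pair the libraries, though libraries of different numbers were not compared in this way. Within all 8 libraries the values for pairs 1, 2, 3 and 4 were -0.53, -0.078, 0.16 and -0.11.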

Additional observations from a re-analysis of the deposited data

Results flagged for a closer look

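SQSTM1 in the CR31B group stood out for 1 distant library: the gap from replicate 1 to the nearest other library was 0.893 of the whole range of the 4 log2 levels, above Dixon's 95% critical value for 4 samples. WIPI1 in the DMSO group had a ratio of 0.845, again from replicate 1. These were 2 of 20 groups of 4 checked, and chance gives about 1 in 20.

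The difference in pair 1 departed from that of pairs 2 to 4 in 7 members by the interaction test (edgeR, adjusted p under the threshold), against 42.5% of all tested genes, with the departure given as pair 1 minus pairs 2 to 4 on the log2 scale. It was 2.21 for SQSTM1, 1.79 for WIPI1, 0.69 for MAP1LC3B, 0.41 for ATG12, 0.33 for ULK1, -0.71 for ATG5 and -2.38 for TFEB. The spread in this test comes from replicates 2 to 4, and the cause was not tested. The departure of ULK1 was called at an edgeR adjusted p of 0.037, and it did not pass without a count filter or without CR31B replicate 4, DMSO replicate 2 or DMSO replicate 4, with edgeR adjusted p from 0.0526 to 0.0729.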

How the results depend on the processing

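In replicates 2 to 4 the number of members called was 6 or 7 under each alternative run, the seventh being ULK1, with 2 higher throughout. It was 6 with the replicate block, where 8540 genes were called in place of 6901, and 7 with GC and length offsets plus the block. The block ended no member's call. Leaving out each library gave 6 members and 5582 to 6727 genes. Upper quartile scaling moved the median log2 fold change of all genes to -0.10, and the ULK1 value of -0.20 is relative to that. BECN1 and NBR1 were uncalled in each of these fits, and BECN1 was negative with upper quartile (-0.030) and total count scaling (-0.013) and with GC and length offsets (-0.041). With all 8 libraries as labelled 0 genes were called under each scaling, filter, tool and model, with 86 to 722 at an unadjusted p under 0.05. Leaving out each library gave 0 or 6 members and 0 to 6920 genes. The number was 6920 without CR31B replicate 1 and 6906 without DMSO replicate 1. In those fits the layout covariate takes up the paired-end library that is left, so they rest on replicates 2 to 4. In the 8-library fit with the replicate block 0 genes were called. For the SQSTM1 partners 3 of 6 were called with GC and length offsets in place of 5, and the cause was not tested. Replicate blocks for the pathway lists were added after seeing the data and gave 64 called genes (68 with GC and length offsets), and 8 in the fusion list. GABARAPL1, with at most 5 counts a library, could not be tested, and the cause of its low counts was not tested. The small counts of TFEB and WIPI1 widen their errors.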
